A study of Homo sapiens with 8 samples.

Results

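The genes that load, start and carry the DNA replication fork were followed in ZR-75-1 cells depleted of EI24. The group was given as a list of 48 symbols, chosen by the place of each protein in replication but with earlier results of these data known. All 48 had a transcript cluster, the array's set of probes for 1 gene, among the 18417 genes tested. ZR-75-1 is an estrogen receptor-positive human breast cancer cell line, and EI24 encodes a membrane protein of the endoplasmic reticulum that is induced by p53. The lines were 2 independent clones that stably express an shRNA against EI24 (shEI24 clone 1 and shEI24 clone 2), a line with an shRNA against GFP (shGFP), and parental cells with no shRNA, all grown in the same medium with no added chemical. Each line was measured on 2 Affymetrix arrays, 8 arrays in all. Each shEI24 line is 1 clone. Whether duplicate arrays represent separate cultures is not stated, so a p-value here reflects array-to-array spread alone, and that spread may be technical.

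Replication is prepared in G1, when the origin recognition complex (ORC), CDC6 and CDT1 load the MCM2-7 helicase onto origins, a step called licensing that geminin blocks after S phase begins. In S phase the kinase CDC7 with its partner DBF4, together with CDC45, the GINS complex, TOPBP1, RECQL4 and MCM10, turns the loaded helicase into a moving fork. Primase and the replicative polymerases then copy the strands with the PCNA clamp, and CLSPN, TIMELESS and TIPIN protect the fork and pass on stalling signals. Many of these genes are transcribed at the G1/S transition under E2F factors, which bind sites of the form TTTCCCGC or TTTGGCGC near transcription starts, and they are commonly read as a sign of proliferation.

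The promoters below show the letters upstream of 6 genes on which the results turn, each with 250 bases before and 50 bases from the RefSeq transcription start (GRCh38.p14), 5′ to 3′ on the gene's strand, with capitals for either E2F form on either strand. MCM7, GINS2 and PRIM1 were among the genes with the largest falls, CDC6 and CLSPN moved in opposite directions in the 2 clones, and ORC3 carries the letters but did not pass the test in any comparison.
PRIM1 (chr12:56752274-56752573, minus strand): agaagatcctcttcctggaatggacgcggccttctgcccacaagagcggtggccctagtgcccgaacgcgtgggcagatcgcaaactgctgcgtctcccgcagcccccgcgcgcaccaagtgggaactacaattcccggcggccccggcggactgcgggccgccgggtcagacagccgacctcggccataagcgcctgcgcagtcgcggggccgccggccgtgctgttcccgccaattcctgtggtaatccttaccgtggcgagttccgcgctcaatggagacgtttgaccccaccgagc
GINS2 (chr16:85688905-85689204, minus strand): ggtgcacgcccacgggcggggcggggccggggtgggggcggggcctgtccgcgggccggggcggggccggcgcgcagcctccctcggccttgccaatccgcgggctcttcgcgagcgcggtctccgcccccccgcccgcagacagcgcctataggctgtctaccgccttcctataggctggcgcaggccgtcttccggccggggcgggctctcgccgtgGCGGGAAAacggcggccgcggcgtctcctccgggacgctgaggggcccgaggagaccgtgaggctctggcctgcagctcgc
MCM7 (chr7:100101348-100101647, minus strand): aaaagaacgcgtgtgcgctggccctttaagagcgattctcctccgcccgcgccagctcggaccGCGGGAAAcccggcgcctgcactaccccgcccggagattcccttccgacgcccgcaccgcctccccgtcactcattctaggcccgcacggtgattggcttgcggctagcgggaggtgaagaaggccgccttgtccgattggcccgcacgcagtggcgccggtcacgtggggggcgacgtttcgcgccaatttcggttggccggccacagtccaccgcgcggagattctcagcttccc
CDC6 (chr17:40287629-40287928, plus strand): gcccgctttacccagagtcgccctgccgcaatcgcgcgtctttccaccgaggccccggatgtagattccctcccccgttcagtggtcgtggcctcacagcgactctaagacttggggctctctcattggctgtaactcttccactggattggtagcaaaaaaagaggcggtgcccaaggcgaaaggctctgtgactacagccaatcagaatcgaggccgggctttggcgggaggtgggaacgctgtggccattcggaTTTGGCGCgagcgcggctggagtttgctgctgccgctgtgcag
CLSPN (chr1:35769929-35770228, minus strand): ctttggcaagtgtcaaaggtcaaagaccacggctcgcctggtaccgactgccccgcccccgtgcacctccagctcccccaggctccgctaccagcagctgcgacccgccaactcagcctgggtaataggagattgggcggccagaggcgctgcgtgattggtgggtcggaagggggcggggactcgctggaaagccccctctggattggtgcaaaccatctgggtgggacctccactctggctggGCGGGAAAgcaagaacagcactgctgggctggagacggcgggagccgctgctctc
ORC3 (chr6:87589885-87590184, plus strand): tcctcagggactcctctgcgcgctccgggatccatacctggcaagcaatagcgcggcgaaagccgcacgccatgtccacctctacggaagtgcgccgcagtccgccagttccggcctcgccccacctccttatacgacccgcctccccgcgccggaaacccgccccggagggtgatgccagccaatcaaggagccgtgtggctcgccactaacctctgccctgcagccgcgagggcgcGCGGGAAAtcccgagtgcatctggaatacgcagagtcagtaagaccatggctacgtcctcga
Counted from the start site, the E2F letters began at base -31 in GINS2, -187 in MCM7, 8 in CDC6, -5 in CLSPN and -12 in ORC3, and the PRIM1 window held neither form. RefSeq promoters were matched for 41 of the 48 genes, and the others were MCM4, MCM5, GINS4, RECQL4, POLD3, RPA2 and RPA3. Either E2F form stood in 16 of the 41 (39.0%), against 2.31% of 27305 promoters of the same length. TTTCCCGC was found in 10 (24.4%, against 1.66%) and TTTGGCGC in 6 (14.6%, against 0.659%), with no promoter of the group holding both. The CCAAT box (CCAAT) stood in 23 (56.1%, against 35.7%), and the cell cycle homology region letters (TTTGAA) in 1, that of DBF4 (2.44%, against 15.4%). Among the 14239 promoters of genes tested on the array, the shares were 3.1% for either E2F form, 2.25% for TTTCCCGC and 0.864% for TTTGGCGC. There they were 36.3% for CCAAT and 11.9% for TTTGAA. Both strands were searched, and the only overlapping matches were 2 CCAAT boxes in POLE. These are matches of letters and not measured binding.

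EI24 itself had log2 intensities of 8.64 and 8.43 in clone 1 and 9.25 and 9.19 in clone 2, against 11.97 and 11.91 in shGFP cells and 12.08 and 12.09 in parental cells. All 4 shEI24 arrays lay below all 4 control arrays, as the labels would have it, and clone 1 had 0.68 less EI24 than clone 2 on the log2 scale (log2 difference -0.68, adjusted p = 0.0023, limma with Benjamini-Hochberg adjustment over all genes, as for every adjusted p given here). The group's own arrays repeated closely. The gap between the 2 arrays of a line had a median over the 48 genes of 0.12 in clone 1, 0.12 in clone 2, 0.06 in shGFP cells and 0.08 in parental cells, and its largest value was 0.59, for DBF4 in clone 1.

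The first comparison asked whether replication genes differ in cells depleted of EI24 from cells with the control shRNA. Of the 48 genes, 43 passed an adjusted p of 0.05 as lower in the mean of both clones than in shGFP cells, and none was higher, either adjusted or at an unadjusted p under 0.05 by limma or by the unpaired t-test of the study's methods. Over all genes 29.0% were lower and 26.8% higher, so that differences were common throughout the array. The median log2 difference of the group was -1.02, a 2.03-fold lower level, whereas that of all genes was 0.08. A fall of at least 2-fold was found for 25 of the 48 genes, against 9.08% of all genes. In 36 genes all 4 shEI24 arrays were below all 4 control arrays, shGFP and parental, against 26.9% of all genes, and in no gene of the group were they all above. The 5 genes that did not pass were ORC3, ORC4, GMNN, RPA2 and CLSPN. With replicate number added to the model as a block, 45 passed as lower, ORC4 and GMNN among them, and 5743 of all genes did. The count of lower genes was smaller with each line taken as 1 replicate, at 25, and with the unpaired t-test after adjustment, at 19. Over all 18417 genes the lower count was also smaller, at 3423 and 3727 in these 2 settings, beside 5348 in the main fit. Because each array measured a whole culture, fewer cells in S phase and less mRNA per cell cannot be told apart.

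**Figure D1:**
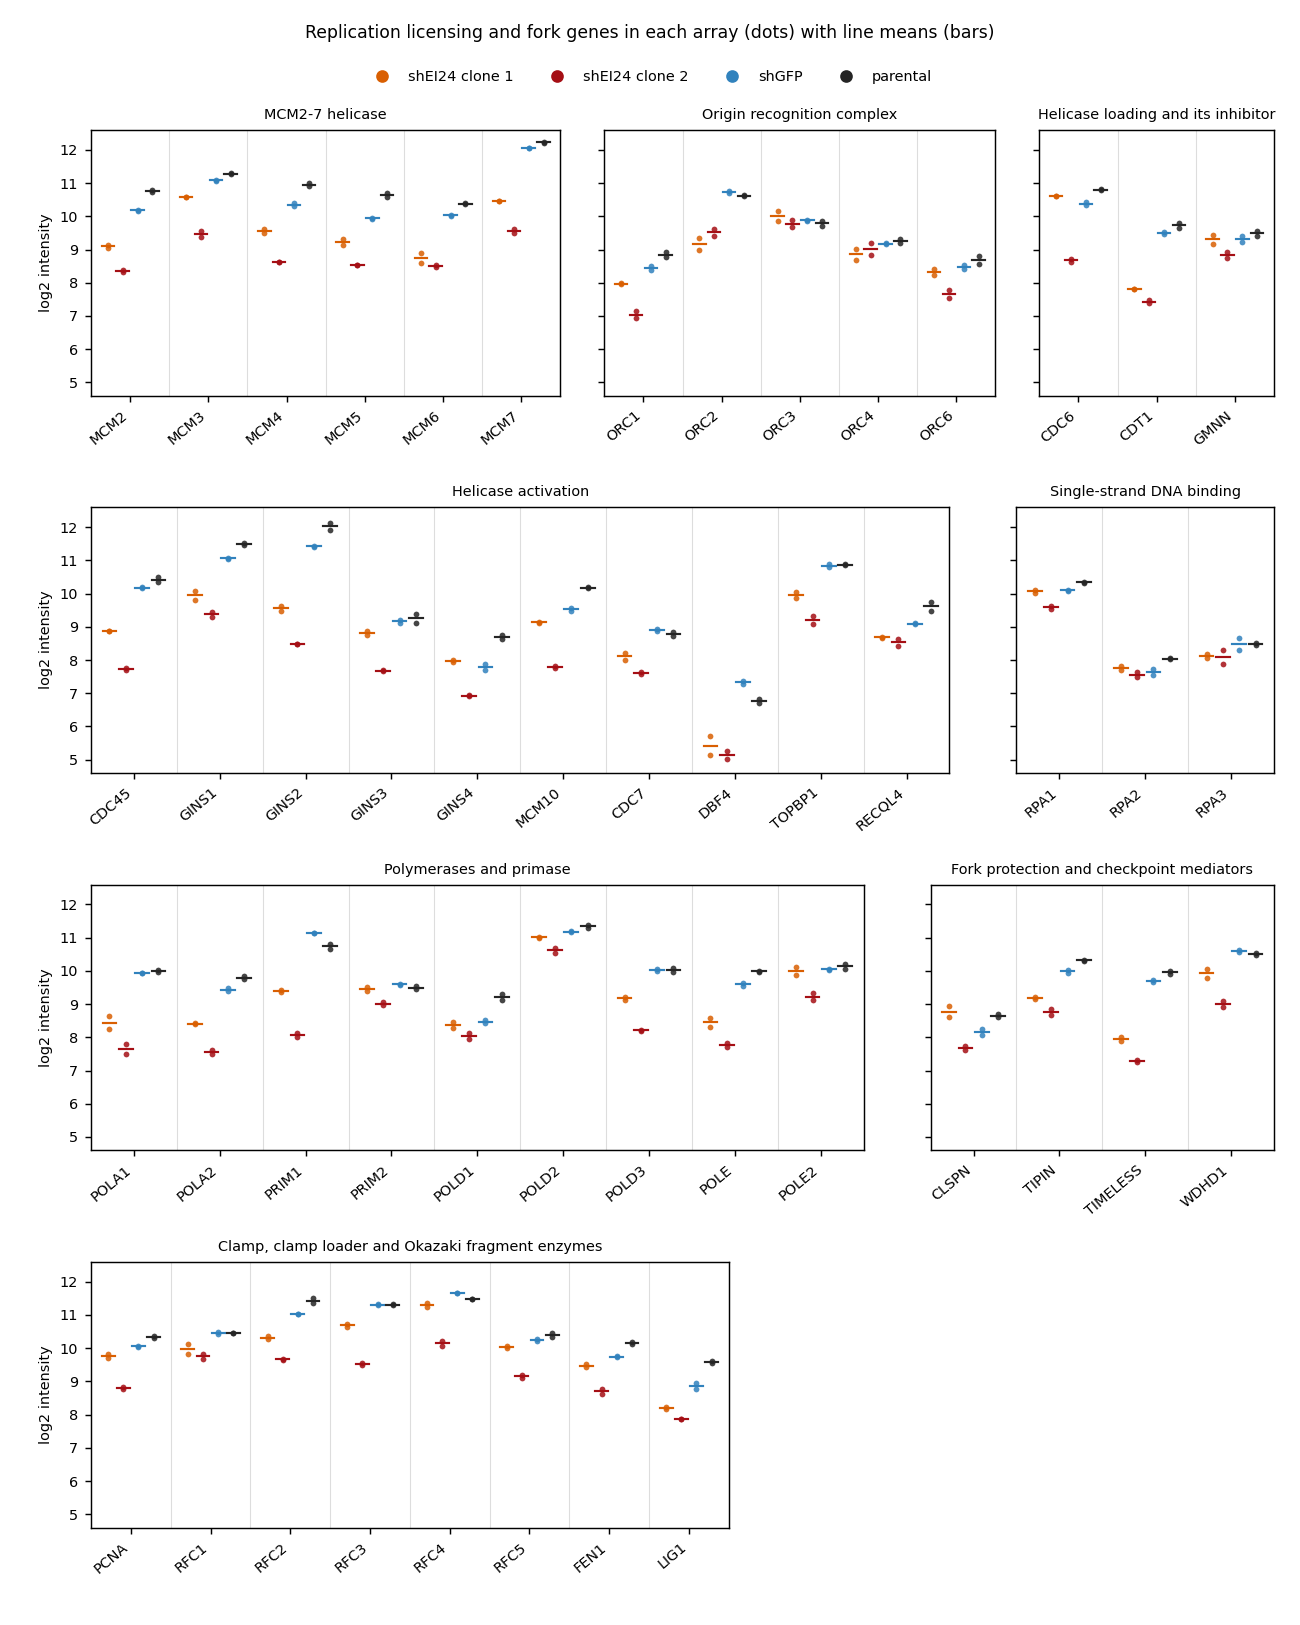
The log2 intensity of each of the 48 genes in every array, in panels by role. Dots are single arrays and bars are the means of 2 arrays per line, in the order shEI24 clone 1, shEI24 clone 2, shGFP and parental. Clone 2 has the lowest mean for 46 genes, a count not made over all genes, and the median gap between the 2 dots of a line is 0.06 to 0.12.

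All 6 subunits of the MCM2-7 helicase, the ring that unwinds the parental duplex, were lower in the clones (median log2 difference -1.33). MCM7 fell most. Its log2 intensities were 10.47 and 10.46 in clone 1 and 9.49 and 9.62 in clone 2, against 12.07 and 12.05 in shGFP cells and 12.24 and 12.21 in parental cells, a log2 difference of -2.05 ± 0.07 (SE) between both clones and shGFP cells, or 4.14-fold (adjusted p = 4.5e-08). The clones did not overlap the controls, and clone 2 was the lower clone. MCM2 (-1.47), MCM6 (-1.40), MCM4 (-1.26), MCM5 (-1.05) and MCM3 (-1.05) followed, all at least 2-fold lower. MCM6 was the subunit whose clones lay closest, at 8.89 and 8.59 in clone 1 and 8.55 and 8.48 in clone 2, against 10.05 and 10.01 in shGFP cells.

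The ORC, which marks the origins, was split. ORC2 fell by 1.39 on the log2 scale, ORC1 by 0.94 and ORC6 by 0.48, whereas ORC3 (0.01 ± 0.10, adjusted p = 0.91) and ORC4 (-0.23 ± 0.13, adjusted p = 0.16) did not pass the test. ORC3 had log2 intensities of 10.16 and 9.87 in clone 1 and 9.88 and 9.68 in clone 2, against 9.87 and 9.89 in shGFP cells and 9.86 and 9.72 in parental cells. The 4 lines thus overlapped for ORC3, and its 95% interval in both clones against shGFP cells ran between -0.22 and 0.25. ORC2 and ORC4 were the 2 genes of the group with the lower mean in clone 1, and for neither did the difference between the clones pass (log2 differences of clone 1 minus clone 2 of -0.35, adjusted p = 0.13 for ORC2 and -0.17, adjusted p = 0.55 for ORC4). ORC2 had log2 intensities of 9.36 and 8.99 in clone 1 and 9.63 and 9.41 in clone 2, against 10.77 and 10.70 in shGFP cells.

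Of the genes that load the helicase, CDT1 fell by 1.88 on the log2 scale (3.67-fold), at 7.80 and 7.81 in clone 1 and 7.39 and 7.48 in clone 2, against 9.52 and 9.48 in shGFP cells. GMNN, which encodes geminin, the inhibitor of CDT1, had a log2 difference of -0.25 ± 0.11 (adjusted p = 0.085). CDC6, the ATPase that joins ORC to CDT1 and the helicase, behaved differently in the 2 clones and its mean difference of -0.73 describes neither. Its log2 intensities were 10.62 and 10.61 in clone 1 and 8.73 and 8.64 in clone 2, against 10.42 and 10.33 in shGFP cells and 10.81 and 10.78 in parental cells. Clone 1 thus lay between the 2 control lines, above shGFP cells by 0.24 (adjusted p = 0.047), whereas clone 2 was below shGFP cells by 1.69 (adjusted p = 4.3e-07).

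All 10 genes that activate the helicase were lower in the mean of both clones (median log2 difference -1.16), although GINS4 in clone 1 (8.01 and 7.95) was above shGFP cells (7.88 and 7.71). GINS2, a subunit of the GINS complex that joins CDC45 to the helicase, had log2 intensities of 9.64 and 9.48 in clone 1 and 8.48 and 8.48 in clone 2, against 11.44 and 11.40 in shGFP cells and 12.12 and 11.93 in parental cells. Its log2 difference of -2.40 ± 0.09 corresponded to a 5.28-fold lower level (adjusted p = 4.6e-08), with each line apart from the others. The other GINS subunits fell less, GINS1 by 1.40, GINS3 by 0.92 and GINS4 by 0.34, and CDC45 fell by 1.88. DBF4, the activating partner of the CDC7 kinase, had log2 intensities of 5.72 and 5.13 in clone 1 and 5.27 and 5.01 in clone 2, against 7.37 and 7.28 in shGFP cells and 6.82 and 6.71 in parental cells. DBF4 was the only gene of the group below the 25th percentile of all genes in the clones, at percentiles 9.53 in clone 1 and 6.96 in clone 2, where background makes up much of an array's signal. Its fitted log2 difference was -2.05 ± 0.15 (adjusted p = 4.5e-06). CDC7 fell by 1.03, TOPBP1, which helps to bring CDC45 to origins, by 1.25, MCM10 by 1.07 and the helicase RECQL4 by 0.50.

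The 9 genes of the polymerases and primase were all lower in the mean of both clones, with log2 differences between -2.41 and -0.26. PRIM1, the catalytic primase subunit that lays down RNA primers, had the lowest log2 difference of the 48 genes. Its log2 intensities were 9.36 and 9.42 in clone 1 and 8.13 and 8.00 in clone 2, against 11.13 and 11.13 in shGFP cells and 10.81 and 10.66 in parental cells, a log2 difference of -2.41 ± 0.08 or 5.30-fold (adjusted p = 2.9e-08). PRIM2, the other primase subunit, differed by only -0.37 (adjusted p = 0.0038), and its clone 1 arrays (9.51 and 9.38) overlapped the parental arrays (9.55 and 9.44). POLA1 and POLA2 of polymerase alpha, which extends the primers, fell by 1.90 and by 1.44. POLE, the catalytic subunit of the leading-strand polymerase epsilon, fell by 1.49 and its partner POLE2 by 0.44. In polymerase delta, which copies the lagging strand, POLD3 fell by 1.35, POLD2 by 0.37 and the catalytic subunit POLD1 by 0.26 (adjusted p = 0.043).

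All 8 genes of the sliding clamp, its loader and Okazaki fragment processing were lower in the mean of both clones, within a narrower range of log2 differences between -1.21 and -0.60. PCNA, the clamp that holds polymerases on DNA, had log2 intensities of 9.81 and 9.69 in clone 1 and 8.76 and 8.84 in clone 2, against 10.07 and 10.04 in shGFP cells and 10.38 and 10.31 in parental cells. PCNA in clone 1 was close under the controls and in clone 2 well below them, and the log2 difference for both clones was -0.78 ± 0.08 (adjusted p = 2.4e-05). In the clamp loader, RFC3 fell by 1.21, RFC2 by 1.03, RFC4 by 0.93, RFC5 by 0.66 and RFC1, the large subunit, by 0.60. FEN1, which trims flaps, fell by 0.65, and LIG1, which seals the fragments, by 0.81.

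The single-strand binding protein RPA differed least. RPA1 fell by 0.28 and RPA3 by 0.38 (adjusted p = 0.012 for RPA1 and 0.04 for RPA3), and RPA2 had a log2 difference of 0.01 ± 0.09 (adjusted p = 0.93). RPA2 in the clones, at 7.70 and 7.81 in clone 1 and 7.63 and 7.48 in clone 2, overlapped shGFP cells (7.73 and 7.55), and all of these lay below parental cells (8.06 and 8.02). RPA1, RPA3, ORC6, GINS4 and POLD1 each lost their call when 1 array was left out: with shGFP replicate 1 omitted, the adjusted p was 0.098 for RPA1, 0.36 for RPA3, 0.059 for ORC6, 0.11 for GINS4 and 0.25 for POLD1.

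Of the fork protection genes, TIMELESS, whose protein binds TIPIN at the fork, had log2 intensities of 8.00 and 7.90 in clone 1 and 7.27 and 7.32 in clone 2, against 9.72 and 9.66 in shGFP cells and 10.00 and 9.92 in parental cells. The log2 difference of TIMELESS was -2.07 ± 0.08, or 4.21-fold (adjusted p = 4.6e-08), with no overlap between clones and controls. TIPIN fell by 1.02, and WDHD1, which couples the helicase to polymerase alpha, by 1.12. CLSPN, the mediator through which ATR activates CHEK1, did not pass the test for both clones together (0.07 ± 0.11, adjusted p = 0.62). Its log2 intensities were 8.94 and 8.61 in clone 1 and 7.74 and 7.62 in clone 2, against 8.26 and 8.06 in shGFP cells and 8.69 and 8.62 in parental cells. Clone 1 was therefore above shGFP cells by 0.62 (adjusted p = 0.0031) and clone 2 below them by 0.48 (adjusted p = 0.011). A second transcript cluster of CLSPN, not used in the tests, gave 8.34 and 8.16 in clone 1 and 7.45 and 7.37 in clone 2, against 7.88 and 7.82 in shGFP cells and 8.48 and 8.41 in parental cells, the same order of lines except that parental cells were above clone 1.

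Against shGFP cells on its own, clone 2 had 44 of the 48 genes lower and none higher (27.8% of all genes lower and 25.2% higher), with a median log2 difference of -1.40. Clone 1 had 33 lower and 2 higher, CDC6 and CLSPN (26.6% of all genes lower and 23.0% higher), with a median of -0.56. The 33 genes lower in clone 1 were all lower in clone 2 too, a comparison for which both clones share the shGFP arrays. This overlap was not counted over all genes. Passing in clone 2 but not in clone 1 were ORC6, GMNN, GINS4, PRIM2, POLD1, POLD2, POLE2, RFC5 and RPA1, 9 genes, and passing in neither were ORC3, ORC4, RPA2 and RPA3.

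**Figure D2:**
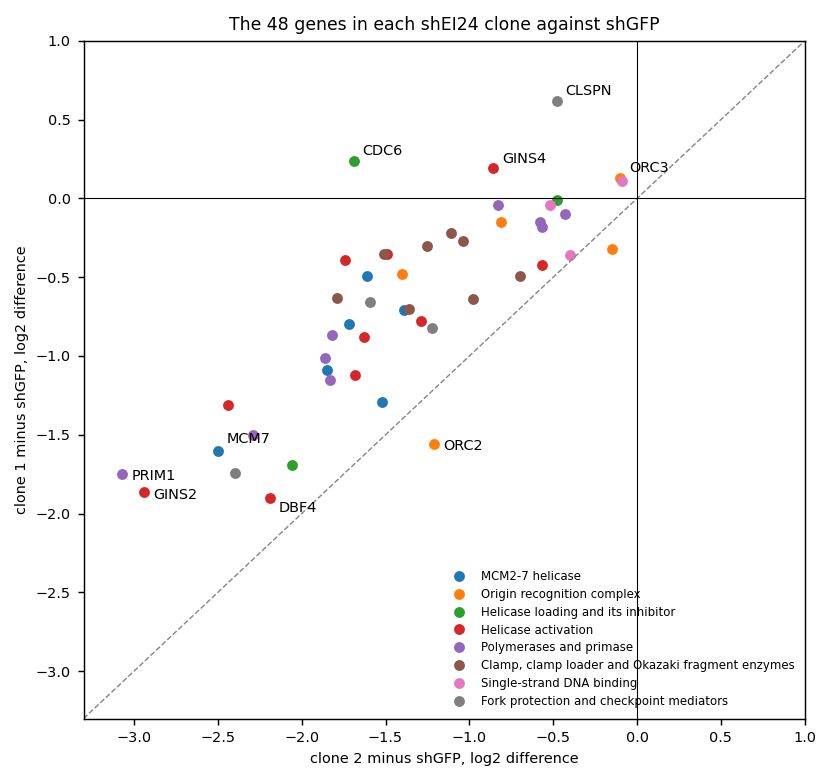
Each point is 1 of the 48 genes, with its log2 difference from shGFP cells in clone 2 on the horizontal axis and in clone 1 on the vertical axis, coloured by role; the dashed line marks equal differences. Nearly all points lie above the line, ORC2 and ORC4 lie below it, and CDC6 and CLSPN are the labelled genes that were called higher in clone 1 and lower in clone 2.

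The second comparison, of clone 1 with clone 2, asked whether the lines depleted of EI24 differ from each other, and also tests whether their differences from shGFP cells are unequal. Of the 48 genes, 38 were higher in clone 1 than in clone 2 and none was lower (1 was lower at an unadjusted p under 0.05), against 9.29% of all genes higher and 5.88% lower. The median log2 difference of the group was 0.72, a 1.64-fold higher level in clone 1, and that of all genes was -0.02. The order of the clones in the replication genes was thus the reverse of their order in EI24 mRNA, which was lower in clone 1. The 10 genes that did not pass were MCM6, ORC2, ORC3, ORC4, DBF4, RECQL4, POLD1, RFC1, RPA2 and RPA3.

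The widest gap between the clones was that of CDC6, at 1.93 ± 0.09 or 3.80-fold (adjusted p = 7.6e-06). MCM10, which stabilises the active helicase, had log2 intensities of 9.14 and 9.13 in clone 1 and 7.75 and 7.82 in clone 2, beside 9.56 and 9.49 in shGFP cells and 10.16 and 10.20 in parental cells. Its arrays separated all 4 lines, with a log2 difference of 1.35 ± 0.08 between clone 1 and clone 2 (adjusted p = 4.7e-05). PRIM1 followed at 1.32 ± 0.09 (adjusted p = 8.6e-05). RFC3, a small subunit of the clamp loader, had log2 intensities of 10.72 and 10.65 in clone 1 and 9.54 and 9.50 in clone 2, beside 11.29 and 11.33 in shGFP cells and 11.30 and 11.32 in parental cells. RFC3 in clone 1 exceeded clone 2 by 1.17 ± 0.08 (adjusted p = 8.8e-05), and the arrays of the 2 control lines overlapped. By role, the genes higher in clone 1 were 5 of 6 MCM2-7 subunits, 2 of 5 ORC subunits, all 3 loading genes, 8 of 10 activation genes, 8 of 9 polymerase and primase genes, 7 of 8 clamp and Okazaki genes, 1 of 3 RPA subunits and all 4 fork protection genes.

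**Figure D3:**
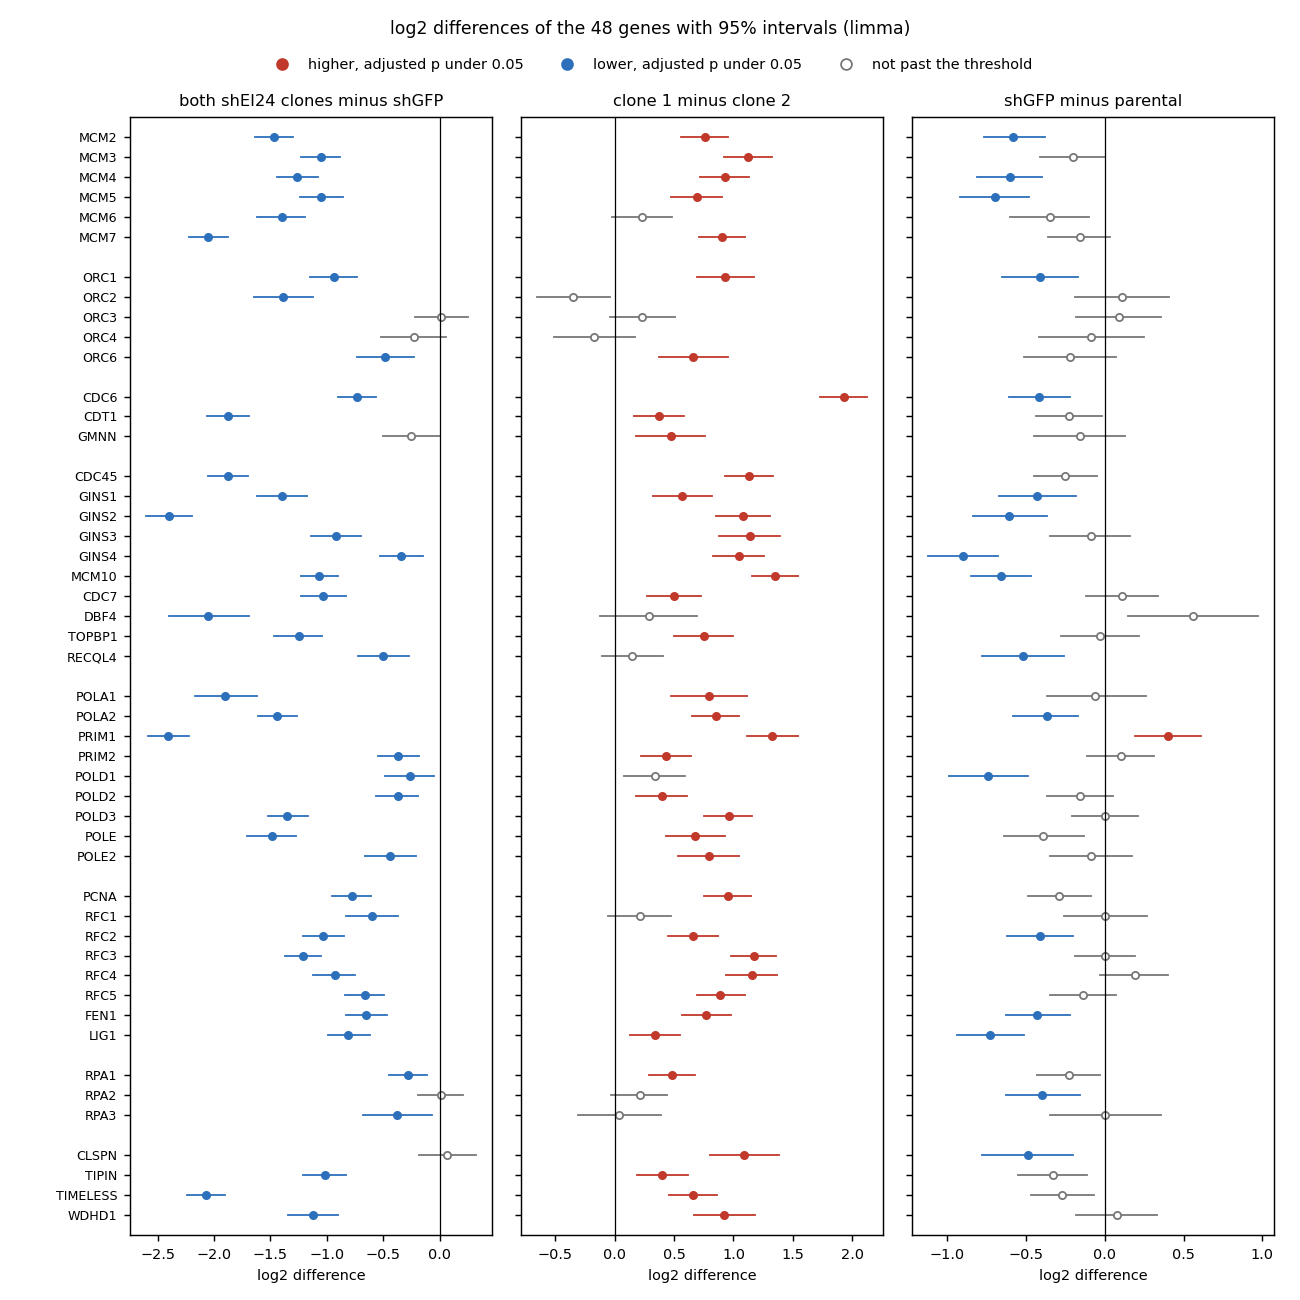
The log2 difference of each gene with its 95% interval in both shEI24 clones minus shGFP, clone 1 minus clone 2, and shGFP minus parental, in role order from MCM2 to WDHD1. Filled points passed an adjusted p of 0.05; 43 are lower on the left, 38 higher in the middle, and on the right 17 are lower and 1, PRIM1, is higher.

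The third comparison, of shGFP cells with parental cells, measured how far replication genes differ between 2 lines that both keep EI24. Of the 48 genes, 17 were lower in shGFP cells and 1 was higher, against 7.44% of all genes lower and 3.21% higher, with a median log2 difference of -0.23, beside -0.03 for all genes. GINS4 differed most, with log2 intensities of 7.88 and 7.71 in shGFP cells and 8.75 and 8.64 in parental cells, and 8.01 and 7.95 in clone 1 and 6.95 and 6.91 in clone 2. Its log2 difference between shGFP and parental cells was -0.90 ± 0.09 (adjusted p = 0.0011), and clone 1 did not pass against shGFP cells (0.19, adjusted p = 0.14). POLD1 had log2 intensities of 8.51 and 8.42 in shGFP cells and 9.29 and 9.12 in parental cells, a log2 difference of -0.74, and the clones were at 8.29 and 8.45 in clone 1 and 7.94 and 8.12 in clone 2. The fitted difference of POLD1 between the 2 control lines was larger than that between the clones and shGFP cells (-0.26), a contrast that was not itself tested.

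LIG1 had log2 intensities of 8.94 and 8.76 in shGFP cells and 9.60 and 9.55 in parental cells (-0.73, adjusted p = 0.0025), with 8.18 and 8.24 in clone 1 and 7.88 and 7.86 in clone 2. MCM5 had 9.96 and 9.92 in shGFP cells and 10.71 and 10.57 in parental cells (-0.70, adjusted p = 0.0033), with 9.15 and 9.31 in clone 1 and 8.55 and 8.55 in clone 2. Both genes were lowest in clone 2, then clone 1, then shGFP cells, and highest in parental cells, with no overlap between lines. PRIM1, the 1 gene that was higher in shGFP cells, differed by 0.40 ± 0.09 (adjusted p = 0.03). With any 1 of the 4 control arrays left out, its line keeps 1 array that is assumed to vary like the other lines. Fewer genes were then called lower in shGFP cells, in the group as over all genes. The group's median log2 difference stayed between -0.31 and -0.18. PRIM1 lost its call in each of the 4 cases.

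Set side by side, the line means ascended in the order clone 2, clone 1, shGFP, parental for 33 of the 48 genes, against 10.3% of all genes. The median level over the group was 9.17 in clone 1, 8.54 in clone 2, 9.96 in shGFP cells and 10.17 in parental cells. Parental cells had the highest mean for 37 genes, shGFP cells for 9 and clone 1 for 2, CLSPN and ORC3. These counts of highest means were not made over all genes. The genes lower both in the clones against shGFP cells and in shGFP cells against parental cells numbered 15 of 48, against 2.37% of all genes, in 2 comparisons that share the shGFP arrays.

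Genes whose promoter window held an E2F form and those without it had similar counts and medians, with no test made of the difference. Only exact matches of TTTCCCGC and TTTGGCGC were counted, so this split does not sort the genes by E2F binding. With the letters, 14 of 16 were lower in both clones than in shGFP cells and the median log2 difference was -1.13. Without them, 23 of 25 were lower and the median was -1.02. Between the clones, 14 of 16 with the letters (median 0.85) and 20 of 25 without them (median 0.66) were higher in clone 1. Of the printed windows, those of GINS2 (-2.40) and MCM7 (-2.05) held a form and that of PRIM1 (-2.41) held neither, and ORC3 held one and did not pass.

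Other genes of the pathway were taken from 5 further lists with 80 measured genes. In both clones together 51 of the 80 were lower than in shGFP cells and 11 were higher, with a median log2 difference of -0.47, and 39 were higher in clone 1 than in clone 2 and 1 was lower. Among further replisome and licensing genes 14 of 18 were lower and 2 higher. ORC5, the remaining ORC subunit with a cluster of its own, was at 9.64 and 9.31 in clone 1 and 9.12 and 8.89 in clone 2, against 11.37 and 11.42 in shGFP cells and 11.22 and 11.19 in parental cells, and so fell by 2.16, more than any of the 5 ORC subunits above. TICRR, which helps to load CDC45, fell by 1.93, and the nuclease-helicase DNA2 by 1.67. Of the chromatin assembly and clamp regulators 10 of 13 were lower and none was higher, led by the PCNA-binding factor PCLAF (-1.82), DSCC1 of an alternative clamp loader (-1.20) and the histone chaperone subunit CHAF1B (-0.91).

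Of 9 genes of deoxynucleotide supply, 6 were lower, with DCTPP1 2.38-fold lower and DUT 2.01-fold lower, enzymes that clear unwanted nucleotides, and 3 were higher. SAMHD1, which degrades deoxynucleotides, was 10.86 and 10.64 in clone 1 and 10.23 and 10.16 in clone 2, against 8.61 and 8.50 in shGFP cells and 8.86 and 8.69 in parental cells, a log2 difference of 1.92. The G1/S regulators were mixed, with 16 of 31 lower and 5 higher. CDK6, a kinase that starts the inactivation of RB, was 10.48 and 10.32 in clone 1 and 10.24 and 10.17 in clone 2, against 6.28 and 6.32 in shGFP cells and 6.66 and 6.37 in parental cells, a fitted 16.0-fold higher level in the clones, with shGFP cells at percentile 23.1 of all genes, in the range where background makes up much of the signal. Its partner cyclin CCND3 was higher by 1.95, and RBL2, a relative of RB, was lower by 1.88. E2F7 (1.5), CDKN1A (1.14) and CDKN1C (0.33) were the other genes of this list called higher. CDK4 (-1.46), SKP2 (-1.22), E2F2 (-1.11), CCNE2 (-1.08) and E2F8 (-1.06) were the others at least 2-fold lower. CDK6 and CCND3 did not pass between the clones (0.20, adjusted p = 0.33 for CDK6 and -0.09, adjusted p = 0.61 for CCND3). Of the 31 G1/S genes, however, 11 were higher in clone 1 than in clone 2 and 1 was lower. The widest of these gaps was that of CCNE2 (1.5), and CDK4 was higher in clone 1 by 0.6. The lower gene was CDKN1A (-0.43, adjusted p = 0.016). Of 9 replication checkpoint genes 5 were lower, led by CDC25C (-0.82), ATR (-0.74) and RAD1 (-0.65), and 1 was higher.

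The labelled cell type was checked with marker lists. The luminal breast epithelial markers were lower in the clones for all 12 genes, with a mean log2 level per array between 8.73 and 8.77 in clone 1 and between 9.06 and 9.08 in clone 2, against 12.02 to 12.05 in shGFP cells and 11.96 to 12.03 in parental cells. ESR1 was at 5.92 and 6.11 in clone 1 and 6.04 and 5.81 in clone 2, against 10.75 and 10.78 in shGFP cells and 10.70 and 10.59 in parental cells, and CDH1 was likewise low in both clones, at 6.09 and 6.14 in clone 1 and 6.10 and 6.48 in clone 2, against 12.32 and 12.30 in shGFP cells and 12.34 and 12.33 in parental cells. All 7 mesenchymal markers were higher, with means of 11.16 to 11.20 in clone 1 and 11.02 to 11.07 in clone 2, against 6.47 to 6.53 in shGFP cells and 6.84 to 7.03 in parental cells. CDH2 was higher by only 0.33 and lay below the 25th percentile of all genes in every line. PDGFRA and PTPRC, named next, also lay below the 25th percentile in every line. Of 8 fibroblast markers 1 was higher (PDGFRA, by 0.28), with means of 6.31 to 6.36 in clone 1 and 6.27 to 6.45 in clone 2, against 6.17 to 6.21 in shGFP cells and 6.11 to 6.25 in parental cells, and of 5 leukocyte markers 3 were higher (CD68 by 3.95, CD14 by 0.89 and PTPRC by 0.21), with means of 7.02 to 7.17 in clone 1 and 6.99 to 7.05 in clone 2, against 5.97 to 6.04 in shGFP cells and 5.90 to 6.11 in parental cells. These shifts run alongside the lower replication genes in both clones, and their part in that result was not tested. Between the clones, where 38 of 48 replication genes differed, 1 of 7 mesenchymal markers and 4 of 12 luminal markers passed, 1 of these luminal markers higher and 3 lower in clone 1. The widest luminal gap was that of KRT19 (clone 1 minus clone 2 -2.24, adjusted p = 6.5e-06). KRT19 was at 9.85 and 9.96 in clone 1 and 12.16 and 12.12 in clone 2, against 12.59 and 12.54 in shGFP cells.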

How the data were processed

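Total RNA of 8 samples (2 arrays for each of 4 lines) was hybridised to Affymetrix whole-transcript arrays. The study's methods name a human exon array, whereas the platform annotation is that of a human gene array. The deposited values are log2 intensities that the authors made with GCOS and RMA, which corrects background and quantile-normalizes arrays (versions not given in the sources used here), for 33297 transcript clusters, with array medians between 7.28 and 7.39. Arrays give no read depth, and their number limits the precision. Clusters with 1 gene symbol in the platform annotation (19460, with 1754 holding several symbols and 12083 unnamed here) were reduced to the cluster with the highest mean per gene, 18417 genes. Line means were fitted over all 8 arrays with limma 3.58.1 (R 4.3.3), with 4 residual degrees of freedom and Benjamini-Hochberg adjustment over all genes at 0.05. The contrast of both clones weights them equally. In simulated data for both clones minus shGFP on 18417 genes, 99.6% of genes changed by -1, 74.4% by -0.5, 69.6% by 0.5 and 100% by 1 (log2) were recovered, and 5.81% of calls were false. Only 200 genes were changed in each of 5 simulations, equally in both clones and with independent noise. In the data far more genes differed and the clones were often unequal, so these rates do not describe the calls made here. Values in every array were given for up to 4 risers and 4 fallers, those of greatest size among the genes passing in each of the 3 main comparisons, for genes called in opposite directions in the clones, and for EI24, and up to 3 genes were named from each other list. Genes printed with array values beyond this rule were chosen after their values were seen. Of the G1/S list, every gene called higher and every gene at least 2-fold lower were named besides. The members and lists were chosen with earlier results of these data known. Alternatives were another spread model, normalization, filter, cluster rule, control, test and the omission of each array.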

Additional observations from a re-analysis of the deposited data

Results flagged for a closer look

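For 38 of the 48 genes the differences of the 2 clones from shGFP cells were themselves different, by the limma test of clone 1 minus clone 2 (adjusted p under 0.05 over all 18417 genes), which is why each is listed here with its log2 difference, positive where clone 1 was the higher clone. No explanation was weighed. Among the MCM2-7 subunits the difference was 1.12 for MCM3, 0.93 for MCM4, 0.90 for MCM7, 0.76 for MCM2 and 0.69 for MCM5. In the origin recognition complex the difference was 0.93 for ORC1 and 0.66 for ORC6. Of the loading genes and their inhibitor the difference was 1.93 for CDC6, 0.47 for GMNN and 0.37 for CDT1. For the helicase activation genes the difference was 1.35 for MCM10, 1.14 for GINS3, 1.13 for CDC45, 1.08 for GINS2, 1.05 for GINS4, 0.75 for TOPBP1, 0.57 for GINS1 and 0.50 for CDC7. In the polymerases and primase the difference was 1.32 for PRIM1, 0.96 for POLD3, 0.85 for POLA2, 0.79 for POLE2, 0.79 for POLA1, 0.68 for POLE, 0.43 for PRIM2 and 0.40 for POLD2. For the clamp, its loader and the Okazaki fragment enzymes the difference was 1.17 for RFC3, 1.16 for RFC4, 0.95 for PCNA, 0.89 for RFC5, 0.77 for FEN1, 0.66 for RFC2 and 0.34 for LIG1. In the single-strand binding protein the difference was 0.48 for RPA1. Among the fork protection genes the difference was 1.09 for CLSPN, 0.92 for WDHD1, 0.66 for TIMELESS and 0.40 for TIPIN. CDC6 and CLSPN were the 2 genes in which the clones were called on opposite sides of shGFP cells.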

How the results depend on the processing

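Of the 43 genes that passed in both clones minus shGFP, and the 5 named genes followed in each of the other 2 main comparisons, none changed direction under the alternatives run; the single-clone comparisons were not repeated. In both clones minus shGFP, 43 genes lower became 19 with the unpaired t-test of the methods and 25 with each line as 1 replicate, and the median of -1.02 became -1.25 with parental cells as the control, -1.15 with both control lines pooled and -1.15 with each line as 1 replicate. Genes near 0 changed sign without it: ORC3 with arrays centred on their medians (-0.03) and with 1 array omitted (-0.06 to 0.09), RPA2 with a second quantile normalization (-0.09), centring (-0.03), parental control (-0.39), pooled control (-0.19), each line as 1 replicate (-0.19) and 1 array omitted (-0.08 to 0.10), and CLSPN with parental control (-0.42), pooled control (-0.18), each line as 1 replicate (-0.18) and 1 array omitted (-0.03 to 0.17).

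In shGFP minus parental, the t-test left 0 higher and 0 lower after adjustment (3 higher and 22 lower at an unadjusted p under 0.05). The fit on only these arrays and the variance prior with an intensity trend each gave 2 higher. Omission of 1 array gave medians of -0.31 to -0.18, and omission of a control array gave fewer lower genes, in the group as over all genes. Over all genes 990 were higher and 1261 lower after a second quantile normalization, beside 592 and 1370 without it. The adjusted t-test left few of all 18417 genes, 3 higher and 8 lower here, and 2 higher and 2 lower in clone 1 minus clone 2. Unadjusted, it called 1522 of all genes higher and 2630 lower here, and 1758 higher and 1238 lower in clone 1 minus clone 2. In clone 1 minus clone 2, the t-test left 0 higher (33 unadjusted), the intensity trend and the second quantile normalization each gave 1 lower, and omission of 1 array gave 30 to 36 higher, 0 to 1 lower and medians of 0.64 to 0.77.

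In the labels same-numbered arrays share only a number, and no batch is named. Their deviations correlated at 0.248 to 0.587 over 18417 genes in the 6 pairs of lines. With the replicate block, 45 genes were lower in both clones minus shGFP, ORC4 and GMNN among them, 2 higher and 23 lower in shGFP minus parental, and 38 higher and 1 lower in clone 1 minus clone 2. Over all genes the block gave 6307 higher and 5743 lower in both clones minus shGFP. It gave 1196 higher and 2240 lower in shGFP minus parental, and 2391 higher and 1788 lower in clone 1 minus clone 2. With 2 arrays a line and 4 residual degrees of freedom, simulated log2 differences of 0.5 were found for 69.6% of genes. That simulation changed only 200 genes, a setting unlike these data, so the rate does not carry over to them. Signal near background limits DBF4 and the control level of CDK6. Among the markers it also limits ESR1 and CDH1 in the clones, ZEB1, SNAI2 and CAV1 in shGFP cells, and CDH2, PDGFRA and PTPRC in every line. The causes of these changes were not tested.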
